A study of Saccharomyces cerevisiae with 3 samples.

Results

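The genes described here encode the pumps and antiporters that move sodium ions and protons across the membranes of budding yeast. They were chosen by name: the sodium ATPases ENA1, ENA2 and ENA5, the antiporters NHA1, NHX1, VNX1 and KHA1, and the proton ATPases PMA1 and PMA2. Of these 9 genes, 8 had spots on the arrays, out of 4069 genes with a symbol. VNX1, a sodium and potassium/proton antiporter of the vacuole, had no spot under its symbol and was not analysed here. Each measured gene had 7 spots per array, and their values were averaged on each array.

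Wild-type cells of BY4741, a MATa laboratory strain with HIS3, LEU2, MET17 and URA3 deleted in whole or in part, were grown in rich medium (YPD) at 30 °C. Cells stressed for 15 minutes, the time the labels give, with NaCl at 0.4 M were compared with untreated cells. Each of 3 independent cultures had a two-colour array of its own. RNA from stressed cells carried Cy3 and RNA from untreated cells Cy5 on all 3 arrays, so an effect of the dye on a gene and an effect of NaCl cannot be told apart. Every value below is a log2 ratio within an array, NaCl over untreated, and levels of different genes cannot be compared. The direction of the ratio is not stated with the deposited values and was taken from STL1, CTT1 and ALD3, osmostress-induced genes that the study also followed by northern blot. Their values lay between 6.54 and 8.37 on the 3 arrays. The deleted genes, lost in whole or in part from stressed and untreated cells alike, lay between -0.21 and 0.11. A ratio does not give their level, so absence of their transcripts was not shown. The median over all genes was between -0.023 and -0.0010 on the 3 arrays, so a change common to all transcripts would not be seen.

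Sodium is toxic to yeast and is held low in the cytosol by export and by storage in the vacuole. Pma1, an essential P-type ATPase, pumps protons out of the cell and makes the gradient on which most other plasma membrane transport depends. Nha1 uses that gradient to exchange sodium or potassium for protons, whereas the Ena proteins expel sodium and lithium with ATP, also when the medium is alkaline and the gradient is of little use. Nhx1 exchanges cations for protons in late endosomes. ENA1 is known as a salt-inducible gene under the control of the Hog1 kinase with the Sko1 factor, of calcineurin and of glucose repression.

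Upon osmostress, 6 of the 8 genes rose, NHA1 fell and ENA5 did not pass the test (limma, adjusted p under 0.05 over all 4069 genes). Of all genes, 26.9% rose and 27.9% fell, 54.8% in either direction. The sodium ATPase genes ENA1 and ENA2 rose 5.43-fold and 3.45-fold. The antiporter genes NHX1 and KHA1 and the proton ATPase genes PMA1 and PMA2 rose by smaller amounts, between 1.47-fold and 1.53-fold. The median log2 ratio of the 8 genes was 0.59, against -0.0058 over all genes. Spots of close copies among the ENA and PMA genes may take up each other's transcripts, so the 8 genes need not be 8 separate measurements.

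**Figure D1:**
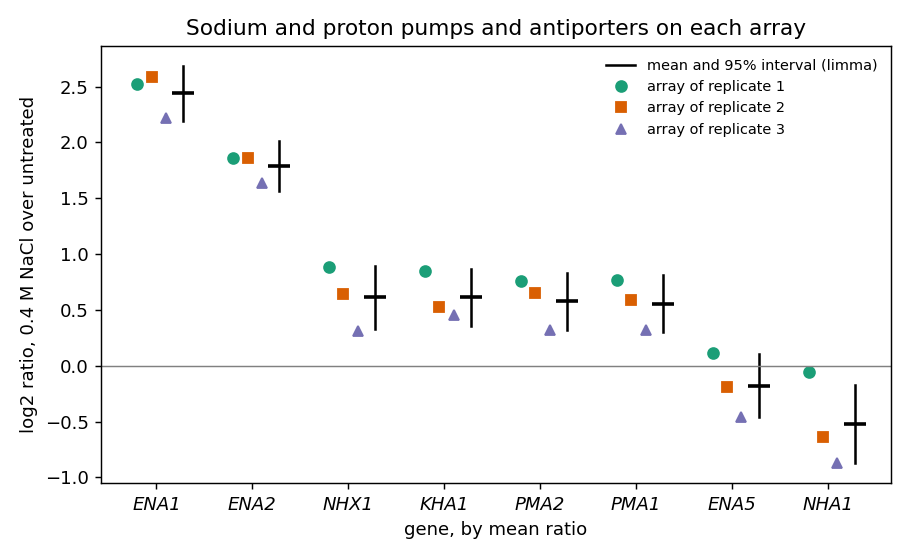
Log2 ratio (0.4 M NaCl over untreated, y axis) of each of the 8 measured genes (x axis, by mean ratio), with the value on each of the 3 arrays and, to the right, the mean with its 95% interval from limma. ENA1 and ENA2 lie above 1.6 on every array, NHX1, KHA1, PMA2 and PMA1 lie between 0.31 and 0.88, and NHA1 lies below 0.

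Among the sodium pumps, ENA1 had log2 ratios of 2.52, 2.58 and 2.22 on the arrays of replicates 1, 2 and 3. These are folds of 5.74, 5.99 and 4.65. The mean was 2.44 ± 0.20 (SD, n = 3), with a 95% interval of 2.20 to 2.69 and an adjusted p of 1.28e-06 from limma, which placed ENA1 at rank 61 from the highest of all genes. ENA1 encodes the main sodium exporter of laboratory strains.

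ENA2, the gene next to ENA1 in the tandem array on chromosome IV, had log2 ratios of 1.86, 1.86 and 1.64. Its mean was 1.79 ± 0.13 (SD, n = 3), with an interval of 1.56 to 2.01 and an adjusted p of 3.32e-06, at rank 115. The SD between arrays was thus below the median over all genes, 0.16, for ENA2 and above it for ENA1. ENA1 and ENA2 are also in the study's table of osmoresponsive genes, and none of the other measured genes here is. That table was chosen on these arrays and is no independent evidence of the direction. It was selected by a fold threshold, and the lowest mean log2 ratio of its genes with a symbol was 0.72. The calls here rest on adjusted p alone, so absence from that table does not mean that a gene did not change.

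ENA5, which lies between ENA2 and KRS1 at the end of the tandem array, gave 0.11, -0.19 and -0.46. The arrays lay on both sides of 0, with a mean of -0.18 ± 0.28 (SD, n = 3), an interval of -0.46 to 0.10 and an adjusted p of 0.247. Without replicate 1, the mean was -0.32 with an adjusted p of 0.0220, so that ENA5 would count as having fallen. Without replicate 3, the mean was -0.04 (adjusted p = 0.848). In the fits without replicate 2 or replicate 3, adjusted p followed the size of the mean, as with 1 variance for all genes. The spread of a gene between the 2 arrays left did not enter there.

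The Ena proteins are close copies of each other, and spots of their genes may take up transcripts of more than 1 of them. The values of the 3 genes fell into separate ranges, which does not show which transcripts a spot took up. Spots of a gene on an array share the RNA and are not replicates. The lowest of the 21 values of ENA1 spots was 2.12, above the highest ENA2 spot at 2.01. The lowest ENA2 spot was 1.48, above the highest ENA5 spot at 0.18. On the same array, ENA1 exceeded ENA2 by 0.66, 0.72 and 0.58 on the log2 scale (mean 0.65 ± 0.07, SD, n = 3) and ENA5 by 2.41, 2.78 and 2.68 (2.62 ± 0.19). ENA2 exceeded ENA5 by 1.75, 2.06 and 2.09 (1.97 ± 0.19). Each of these differences was many times its spread between arrays. An exact two-sided sign-flip permutation test gave p = 0.25 for each, the smallest that 3 arrays allow (0.286 adjusted over the 8 pairs compared), and the same for the pairs tested below other than PMA2 and PMA1. What share of the ENA2 ratio came from ENA1 transcripts was not tested, since probe sequences were not at hand.

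**Figure D2:**
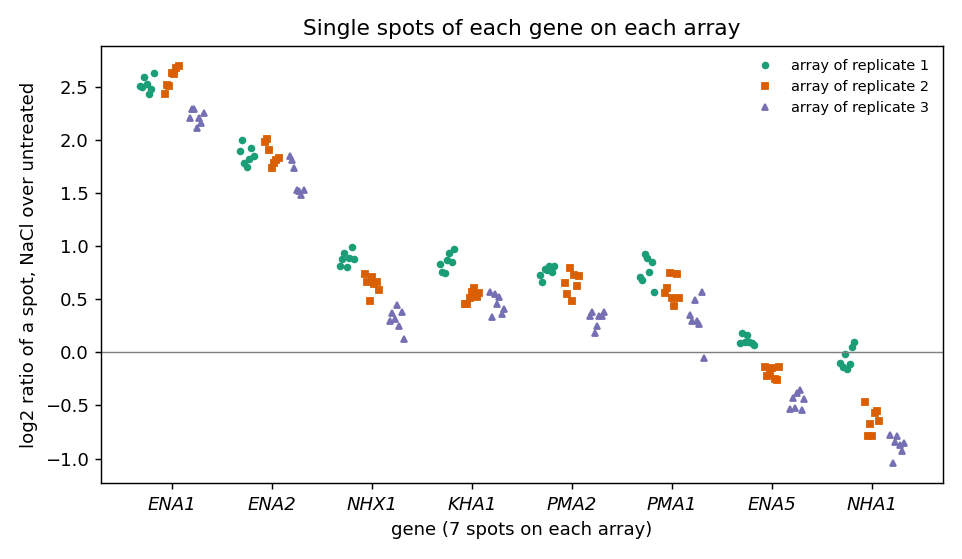
Log2 ratio (NaCl over untreated, y axis) of each single spot, 7 per gene and array, for the 8 measured genes (x axis, by mean ratio), with arrays told apart by colour and symbol. The spots of ENA1, ENA2 and ENA5 keep to separate ranges, those of PMA1 and PMA2 overlap, and 1 PMA1 spot of replicate 3 lies below 0.

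The spots of a gene lay close together within an array. Their SD ranged between 0.041 (ENA5, replicate 1) and 0.20 (PMA1, replicate 3), against a median over all genes between 0.079 and 0.093. In the ENA2 spots of replicate 3, values ranged between 1.48 and 1.85 with an SD of 0.15, the second widest set. In 5 of the 8 genes, all 21 spot values had the same sign. The exceptions were ENA5, whose spots were all above 0 in replicate 1 and all below 0 in replicates 2 and 3, NHA1, with 2 spots above 0 in replicate 1, and PMA1, with 1 spot at -0.057 in replicate 3.

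Among the antiporters, the endosomal and Golgi genes rose and the plasma membrane gene fell. NHX1, the sodium/proton exchanger of late endosomes, had log2 ratios of 0.88, 0.64 and 0.31. The mean was 0.61 ± 0.29 (SD, n = 3), or 1.53-fold, with an interval of 0.33 to 0.90 and an adjusted p of 0.00377. KHA1, which encodes a putative potassium/proton antiporter of the Golgi, had 0.85, 0.53 and 0.46, with a mean of 0.61 ± 0.21 (SD, n = 3), an interval of 0.36 to 0.86 and an adjusted p of 0.00205. Every array was above 0 for both genes, and both were highest in replicate 1 and lowest in replicate 3.

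NHA1, the sodium and potassium/proton antiporter of the plasma membrane, had log2 ratios of -0.05, -0.64 and -0.87. Replicate 1 was thus near 0 and inside the range of the deleted genes, while replicates 2 and 3 were well below it. The mean was -0.52 ± 0.42 (SD, n = 3), or 0.696-fold, with an interval of -0.88 to -0.17 and an adjusted p of 0.0204. Its SD between arrays was the widest of the 8 genes, larger than that of 96.8% of all genes or equal to it. The mean was -0.35 without replicate 3 (adjusted p = 0.0410) and -0.76 without replicate 1, and NHA1 did not pass at an adjusted p under 0.01. The value of 0.0410 did not take in the spread of NHA1 between replicates 1 and 2, so it does not show that the call holds there. On the same array, NHX1 exceeded NHA1 by 0.94, 1.28 and 1.18 (1.13 ± 0.18) and KHA1 exceeded NHA1 by 0.90, 1.17 and 1.33 (1.13 ± 0.22).

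Both proton pump genes rose. PMA1, the essential plasma membrane proton ATPase, had log2 ratios of 0.77, 0.59 and 0.32, which are folds of 1.70, 1.50 and 1.25. The mean was 0.56 ± 0.23 (SD, n = 3), with an interval of 0.30 to 0.81 and an adjusted p of 0.00374. PMA2, a close copy of PMA1 that cells can do without, had 0.76, 0.65 and 0.32, with a mean of 0.58 ± 0.23 (SD, n = 3), an interval of 0.32 to 0.83 and an adjusted p of 0.00327. All arrays were above 0 for both genes. The study gives PMA1 as a housekeeping gene whose RNA polymerase II occupancy was reduced upon osmostress. It reports a faster recovery there in wild-type cells than in cells without HOG1. Polymerase occupancy and a transcript ratio within an array are unlike measures, and how they relate at PMA1 was not tested.

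The ratios of PMA2 and PMA1 differed on the same array by -0.0073, 0.062 and 4.6e-05, with a mean of 0.018 ± 0.038 (SD, n = 3; exact sign-flip permutation test, p = 0.75). This does not show that both genes respond alike, since spots of 1 gene may also take up transcripts of the other, which was not tested. The levels of PMA1 and PMA2, which differ widely in growing cells, cannot be read from a ratio. ENA1 exceeded PMA1 by 1.75, 2.00 and 1.90 on the log2 scale, or 3.69-fold by the mean, and exceeded NHA1 by 2.57, 3.22 and 3.09, or 7.80-fold.

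In order of their means, the genes were ENA1, ENA2, NHX1, KHA1, PMA2, PMA1, ENA5 and NHA1. Between neighbours, ENA1 and ENA2, ENA2 and NHX1 (1.17 ± 0.18), PMA1 and ENA5 (0.74 ± 0.07) and ENA5 and NHA1 (0.34 ± 0.16) kept their order on all 3 arrays. NHX1 and KHA1 (0.0007 ± 0.13), KHA1 and PMA2 (0.04 ± 0.14) and PMA2 and PMA1 did not differ beyond the spread between arrays. A shift between arrays ran through the whole group. The array of replicate 3 gave the lowest value in all 8 genes, and that of replicate 1 the highest in 6, with ENA1 and ENA2 highest in replicate 2. The median of the 8 genes was 0.81 in replicate 1, 0.61 in replicate 2 and 0.32 in replicate 3. Among all genes, replicate 3 was lowest in 37.3% and replicate 1 highest in 42.4%, but replicate 1 was also lowest in 41.6%. Of the genes that rose, 46.5% were lowest in replicate 1 and 36.9% in replicate 3, so the order in this group was not that of most genes. The part of the group's shift in the results was not tested beyond leaving out each replicate.

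**Figure D3:**
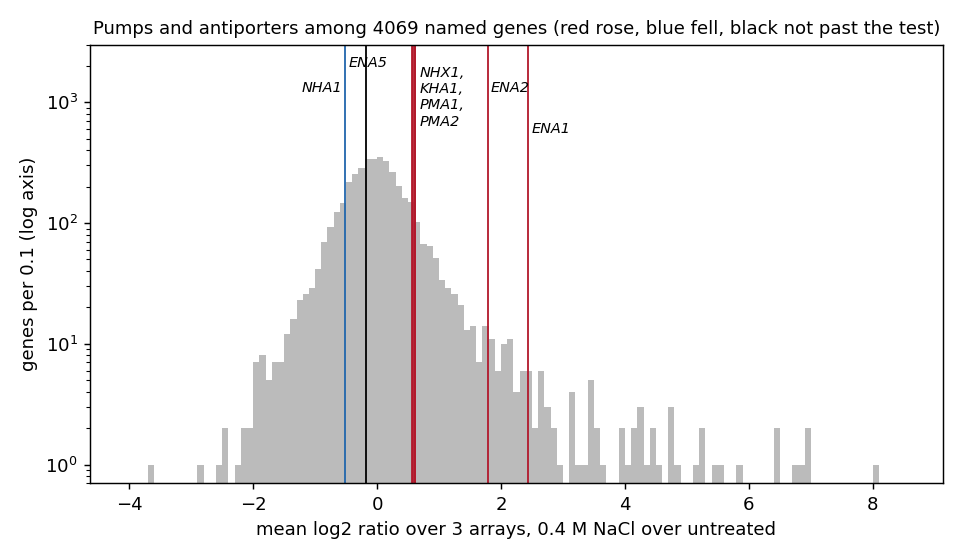
Distribution of the mean log2 ratio (0.4 M NaCl over untreated, x axis) of 4069 genes, as genes per bin of 0.1 on a log axis (y axis), with a line at each of the 8 pumps and antiporters. ENA1 and ENA2 lie in the upper tail at ranks 61 and 115, NHX1, KHA1, PMA1 and PMA2 on its shoulder, and ENA5 and NHA1 on the lower side.

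NHX1, KHA1, PMA2 and PMA1 stood at ranks 537, 541, 586 and 611 of the 4069 genes, near the middle of the 1093 genes that rose, whose median was 0.61. Over the 3 arrays, the genes with values nearest to those of ENA1 by Euclidean distance were GAT4, which encodes a GATA-type zinc finger protein (distance 0.26, mean log2 ratio 2.37), the ammonium permease gene MEP1 (0.28, 2.32) and the stress-induced gene GRE1 (0.33, 2.35). ENA2 lay at a distance of 1.14, with 62 genes nearer. Nearest to PMA1 were CCP1 of mitochondrial peroxide defence (0.034), the cell wall gene SCW10 (0.051) and CAC2 of a chromatin assembly factor (0.054), and PMA2 was the next after these at 0.063. Nearest to PMA2 were SCW10 (0.044), PMA1 itself and the peptide transporter gene PTR2 (0.076). With 3 arrays, such a likeness describes the size of the ratios only.

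The genes that act on these pumps were described from lists set by name. Of 8 measured genes for kinases, proteolipids and assembly factors of Pma1, 3 rose and 2 fell (37.5% and 25%, against 26.9% and 27.9% of all genes), with a median of 0.17. The kinase genes PTK2 and HRK1, whose products activate Pma1, rose most. PTK2 had log2 ratios of 2.02, 1.76 and 1.82 (mean 1.86 ± 0.14, SD, n = 3, adjusted p = 2.92e-06) and HRK1 had 1.63, 1.24 and 1.16 (1.34 ± 0.25, adjusted p = 4.68e-05). Both exceeded the change of PMA1 itself on every array. AST2 rose by 0.29, whereas PMP2, which encodes a proteolipid bound to Pma1, fell by 0.44 and AST1, whose product takes part in Pma1 delivery to the cell surface, fell by 0.35 on the log2 scale. The calls of these 3 genes were lost without replicate 2 (adjusted p = 0.276, 0.0842 and 0.0612 for AST2, PMP2 and AST1). Those of AST2 and AST1 were lost without replicate 3 as well (0.189 and 0.107). In both fits adjusted p followed the size of the mean, so these losses do not describe the spread of each gene.

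Of 26 measured regulators of ENA1, 11 rose and 6 fell (42.3% and 23.1%, against 26.9% and 27.9% of all genes), with a median of 0.18. Both genes for Nrg repressors rose: NRG1, whose product binds the ENA1 promoter and represses it, had log2 ratios of 2.26, 2.77 and 2.94 (mean 2.66 ± 0.35, SD, n = 3, adjusted p = 2.60e-06), and NRG2 had 2.68, 2.33 and 2.37 (2.46 ± 0.19, adjusted p = 1.17e-06). HAL1, which raises ENA1 expression when in excess, rose by 1.70 ± 0.13. MIG2, which encodes a glucose repressor, fell by 1.48 ± 0.28, with values of -1.32, -1.32 and -1.81, whereas MIG1 did not pass (mean -0.0071). RIM9, of the pathway that senses alkaline medium, fell by 0.61 ± 0.17. The RIM genes did not share a direction: RIM13 fell by 0.54, RIM20 rose by 0.61, and RIM101 and RIM21 did not pass.

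SKO1, which encodes the factor through which Hog1 acts on ENA1, fell by 0.60 ± 0.07, with -0.59, -0.66 and -0.53 on the 3 arrays (adjusted p = 0.000996). HOG1 itself rose by 0.42 ± 0.14 and CRZ1, which encodes the factor downstream of calcineurin, by 0.36 ± 0.11. Without replicate 2, the adjusted p was 0.137 for HOG1 and 0.111 for CRZ1, values that followed the size of the mean and not the spread of either gene. The list holds repressors as well as activators of ENA1.

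**Figure D4:**
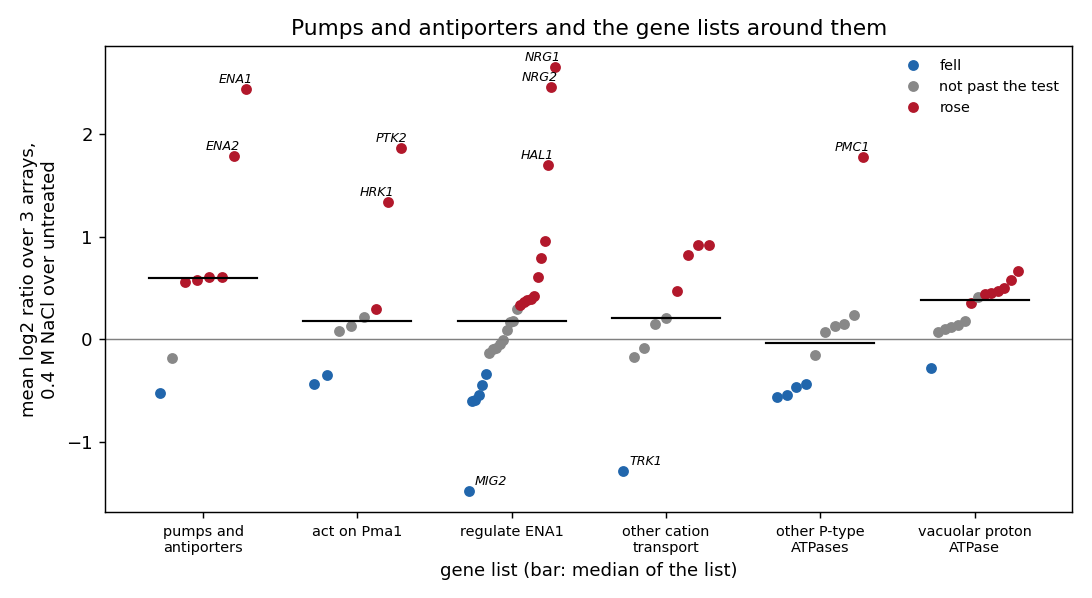
Mean log2 ratio over the 3 arrays (0.4 M NaCl over untreated, y axis) of the measured genes of each list (x axis), with red for genes that rose, blue for genes that fell and grey for genes not past the test, and a bar at the median of each list. Of these lists, the pumps and antiporters have the highest median (0.59), and the other P-type ATPases a median of -0.04 with PMC1 far above it.

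The remaining P-type ATPases, which carry calcium, copper and lipids among other substrates, are relatives of the Ena and Pma proteins. Of the 10 measured genes of this list, 1 rose and 4 fell (10% and 40%, against 26.9% and 27.9% of all genes), with a median of -0.04. The gene that rose was PMC1, the calcium pump of the vacuole, with log2 ratios of 1.74, 1.69 and 1.90 (mean 1.78 ± 0.11, SD, n = 3, adjusted p = 3.11e-06), close to the value of ENA2. The lipid flippase genes DNF2 (-0.56 ± 0.29) and DRS2 (-0.54 ± 0.14) and the copper pump gene CCC2 (-0.47 ± 0.18) fell. Without replicate 2, adjusted p was 0.0514 for DNF2 and 0.0542 for CCC2, in the fit where it followed the size of the mean only.

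Of 9 measured genes of other cation transport and its kinases, 4 rose and 1 fell (44.4% and 11.1%, against 26.9% and 27.9% of all genes), with a median of 0.21. PHO89, a sodium/phosphate symporter gene, rose by 0.92 ± 0.35, HAL5, which encodes a kinase that sustains potassium uptake, by 0.92 ± 0.27, and VCX1, the calcium/proton antiporter gene of the vacuole, by 0.82 ± 0.23. TRK1, the gene of the main potassium importer, fell by 1.28 ± 0.15, with -1.25, -1.45 and -1.15 on the 3 arrays (adjusted p = 2.44e-05), the opposite direction to ENA1 on every array.

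Of 14 measured subunits of the vacuolar proton ATPase, which drives the antiporters of the vacuole, 7 rose and 1 fell (50% and 7.14%, against 26.9% and 27.9% of all genes), with a median of 0.38. The 3 that rose most were VMA11 (0.66 ± 0.28), VMA4 (0.58 ± 0.18) and VMA13 (0.50 ± 0.10), values near those of PMA1 and NHX1. Another 6 subunits did not pass. STV1, the subunit isoform of the Golgi and endosomes, fell by 0.28 ± 0.09. It did not pass when replicate 2 (adjusted p = 0.290) or replicate 3 (0.158) was left out, in fits that did not take in the spread of STV1 itself.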

How the data were processed

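Hybridizations were made by the authors with RNA of 3 independent 200 ml cultures. They deposited 1 normalized log2 ratio for each of 45220 spots and array. The processing notes of the submitters name limma, with its version, background correction, normalization and filters not given in the sources used here. Spot intensities were not analysed, so dim spots could not be left out. The log base was read from the study's table of osmoresponsive genes, selected on these arrays by a fold threshold: all 385 of them with a symbol were above 0 on every array, with a lowest mean of 0.72, near the log2 of that threshold.

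Spots were named through the platform annotation. In the R64 gene table, which was used for names and neighbours only, 3940 of 4073 symbols were current, 129 matched a synonym and 4 were kept. The 28532 named spots measured 4069 genes, and 1 spot lacked a value on 1 array. The value of a gene on an array was the mean of its spots. limma (version 3.58.1, R 4.3.3) fitted an intercept to the 3 ratios of a gene, with empirical Bayes, two-sided p-values and Benjamini-Hochberg adjustment over all genes at 0.05. "Rose" and "fell" mean past this threshold. Intervals are 95% intervals of that fit. The number of arrays limits the precision. Python 3.11.15 made the figures.

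Named genes are all measured pumps and antiporters, up to 3 genes that rose and 3 that fell most in each list, HOG1, SKO1, CRZ1, PTK2, HRK1 and TRK1, the 3 genes nearest to ENA1, PMA1 and PMA2, the genes used for the direction and the deleted genes. MIG1, RIM13, RIM20, RIM101 and RIM21 were added beside MIG2 and RIM9. Genes and lists were chosen with earlier results of these data known. Alternatives were the median of spots, centring, scaling and quantile normalization of arrays, robust empirical Bayes, leaving out each replicate, a threshold of 0.01, and single spots as features.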

Additional observations from a re-analysis of the deposited data

How the results depend on the processing

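ENA1, ENA2, NHX1, KHA1, PMA1 and PMA2 rose under all 9 alternatives fitted per gene. In the fits without replicate 2 or replicate 3, adjusted p followed the size of the mean, as with 1 variance for all genes. Those fits do not show whether a call holds against the spread of the gene itself. In the fit of single spots, all 7 spots of each rose, except for PMA1, with 6 of 7. Spots of a gene share the RNA of an array, so counts of spots add no replicates. The number that fell was 1 of 8 and ranged between 1 and 2 when a replicate was left out, the gene added being ENA5 without replicate 1. At an adjusted p under 0.01 it was 0, since NHA1 had an adjusted p of 0.0204 (limma, unadjusted p = 0.00927), and in the fit of single spots 5 of 7 NHA1 spots fell. Over the alternatives, the adjusted p of NHA1 ranged between 0.000577 (without replicate 1) and 0.0442 (without replicate 2). Of all genes, 1135 fell, and between 695 (without replicate 2) and 1340 (without replicate 1) when a replicate was left out. The fits without a replicate rest on 2 arrays. The alternatives gave 387 values of 43 named genes, without the deleted genes, MIG1, RIM13, RIM20, RIM101 and RIM21. Of these values, 369 kept their direction and side of the threshold, and 17 kept the direction but no longer passed. These 17 all came from the fits without replicate 2 or replicate 3 or from the threshold of 0.01. Only 1 came to pass (ENA5), and none of these 43 genes changed direction. The ratio within an array already pairs both conditions of a culture, so the fit reported is itself the paired one. No paired analysis beyond it was possible because all arrays form 1 group. No brightness of spots was at hand, so the effect of dim or saturated spots on these ratios was not tested.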
